A study of Mus musculus with 5 samples.

Results

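The T cell receptor alpha and beta V genes were read here as gene UMI counts in 5 droplet 5′ scRNA-Seq reactions. All genes whose symbol begins with Trav or Trbv were taken. These were 163 of 32285 genes (128 Trav and 35 Trbv) in the 3 tumor-draining lymph node (TDLN) reactions, and 165 of 33696 genes (130 Trav and 35 Trbv) in the 2 MC38 tumor reactions. The study asked how the JAK1 inhibitor ABT-317, given after dual checkpoint inhibition (CPI, antibodies against CTLA4 and PD-1), shapes antitumor immunity. Male C57BL/6J mice aged 8 to 10 weeks carried subcutaneous tumors of the mouse prostate cancer line TRAMP-C2 for the TDLN reactions, or of the mouse colorectal cancer line MC38 for the tumor reactions. Isotype antibody or CPI was given on day 3, day 6, and day 9, ABT-317 at 20 mg/kg or its vehicle followed on day 12, and tissue was taken on day 15. Each reaction pooled all 4 treatments, marked by hashtag antibodies, and 60000 cells were loaded. TDLN cells were unsorted, whereas MC38 cells were sorted into CD45+ and CD45– fractions and mixed in equal parts. The node matrices hold antibody rows that are 0 throughout, so node values are over all treatments together.

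A T cell builds its receptor by joining V, D, and J segments for the beta chain and V and J segments for the alpha chain, and the V segment encodes most of the variable domain. Beta rearrangement is usually completed on a single allele, so most T cells express 1 beta chain, whereas a second alpha rearrangement is common. The coreceptors CD4 and CD8 bind MHC class II and class I, respectively, and V segment use differs somewhat between CD4+ and CD8+ T cells of a mouse. A tumor-reactive clone that expands carries its V segments with it.

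All 163 node gene identifiers were found in the GENCODE M21 annotation of GRCm38. The Trbv genes span chr6:40891229-41558452, where 22 of the 35 are annotated as functional V segments and 13 as pseudogenes. Trbv31 lies inverted downstream of the other Trbv genes and is the only 1 of them on the minus strand. The Trav genes span chr14:52427928-53977678, with 108 functional segments and 20 pseudogenes. Duplication of this locus left 38 Trav genes whose V exon is identical to that of another Trav gene and 57 whose V exon is within 3 bases of another, and no Trbv V exon is identical to another. The 38 genes held 76 of 39732 Trav UMIs (0.191%) in mixed barcodes, and 10 of them had any, so their use could not be read from these counts. Counts of single Trav genes are therefore uncertain, and Trbv genes were used for most comparisons. The related genes Trbv12-1 and Trbv12-2, with Trbv13-1 between them, matter most below, the former in node CD8-type barcodes and the latter in MC38 tumors, and their V exons (exon 2, GRCm38, plus strand, 293 bases each, chr6:41113775-41114067 and chr6:41119072-41119364) share 89.1% of their bases. Capitals mark the 32 bases that differ.
Trbv12-1: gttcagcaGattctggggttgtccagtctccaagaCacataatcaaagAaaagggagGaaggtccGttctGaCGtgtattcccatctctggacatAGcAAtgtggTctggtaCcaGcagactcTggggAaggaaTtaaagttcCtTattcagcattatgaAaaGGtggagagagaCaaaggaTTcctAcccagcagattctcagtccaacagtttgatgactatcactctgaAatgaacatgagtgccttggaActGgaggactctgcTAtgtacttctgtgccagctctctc
Trbv12-2: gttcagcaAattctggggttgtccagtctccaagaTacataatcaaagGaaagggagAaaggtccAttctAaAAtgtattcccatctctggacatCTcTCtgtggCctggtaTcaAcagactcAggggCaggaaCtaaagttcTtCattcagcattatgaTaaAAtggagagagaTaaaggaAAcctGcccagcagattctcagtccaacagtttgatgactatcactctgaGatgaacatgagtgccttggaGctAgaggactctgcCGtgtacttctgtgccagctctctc

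Exon 2 is shown for Trbv31 (chr6:41557693-41557984, minus strand, 292 bases), Trbv26 (chr6:41227696-41227993, plus strand, 298 bases), and Trbv15 (chr6:41141361-41141658, plus strand, 298 bases). Trbv31 and Trbv26 were higher in the CD4-type sums tested below, and Trbv15 had the most Trbv UMIs in node T-type barcodes. Capitals mark the last in-frame cysteine codon, after which 11, 14, and 14 bases of the segment remain before the join.
Trbv31: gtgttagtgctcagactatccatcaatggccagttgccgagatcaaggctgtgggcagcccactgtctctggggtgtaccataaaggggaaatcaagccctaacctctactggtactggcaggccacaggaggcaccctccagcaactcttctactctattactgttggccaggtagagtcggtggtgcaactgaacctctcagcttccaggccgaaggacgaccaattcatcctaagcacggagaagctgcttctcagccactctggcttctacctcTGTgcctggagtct
Trbv26: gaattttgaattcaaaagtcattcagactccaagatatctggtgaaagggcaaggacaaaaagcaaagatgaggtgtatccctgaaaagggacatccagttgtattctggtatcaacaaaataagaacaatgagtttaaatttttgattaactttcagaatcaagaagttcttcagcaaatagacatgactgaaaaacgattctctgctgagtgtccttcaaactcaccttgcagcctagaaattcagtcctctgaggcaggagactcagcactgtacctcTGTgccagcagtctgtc
Trbv15: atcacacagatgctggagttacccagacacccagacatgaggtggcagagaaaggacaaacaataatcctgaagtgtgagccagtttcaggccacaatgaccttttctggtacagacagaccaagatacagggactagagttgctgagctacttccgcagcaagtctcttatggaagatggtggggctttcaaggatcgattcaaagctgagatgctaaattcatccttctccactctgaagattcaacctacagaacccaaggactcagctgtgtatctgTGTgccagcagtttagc

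The reactions held 62575, 56511, and 7050 barcodes with 127052825, 105259770, and 18055617 gene UMIs in TDLN 1, 2, and 3, and 37774 and 27582 barcodes with 435031691 and 377184807 gene UMIs in MC38 tumor 1 and 2. Trbv genes took 71263, 61592, 11553, 765, and 962 of these UMIs and Trav genes 27900, 26348, 4661, 1323, and 1435. Between 81 and 91 Trav and 24 and 28 Trbv genes had a UMI in each node reaction, and 56 or 57 Trav and 20 or 22 Trbv genes in each tumor reaction. Passing barcodes, with 200 genes or more but below 2500 and with mitochondrial UMIs under 10%, numbered 62322, 56229, and 6518 in nodes and 15219 and 9682 in tumors. Any 2 reactions shared 271 to 4842 barcode sequences, 3.84% to 8.70% of the smaller reaction.

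Barcodes were classed by a gate that used no T cell receptor gene, because clusters made on all genes would have used the V genes themselves. A node T-type barcode had a UMI of Cd3d, Cd3e, or Cd3g, at least 3 UMIs of an 11-gene T list, and at most 10% of its T and B list UMIs from an 11-gene B list. CD4-type barcodes had Cd4 and neither Cd8a nor Cd8b1, and CD8-type barcodes the reverse. This left 463, 1353, and 35 T-type barcodes, of which 45, 109, and 2 were CD4-type and 219, 687, and 19 CD8-type. Mixed barcodes, with a CD3 gene, Cd79a or Cd79b, and a B list share between 10% and 90%, were 41894, 34353, and 4303 in number and made up 67.2%, 61.1%, and 66.0% of passing node barcodes. In MC38 tumors, 394 and 400 barcodes were T-type (23 and 35 CD4-type, 177 and 189 CD8-type), and macrophage markers were seen in 65.5% and 46.5% of them at 719 and 512 CPM (UMIs per 1000000 gene UMIs), against 12575 and 15700 CPM in myeloid-type barcodes. Their part in the values below was not tested.

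Beta V segments were abundant in node T-type barcodes and nearly missing from tumor myeloid cells. Trbv genes together reached 996, 984, and 1285 CPM in T-type barcodes of TDLN 1, 2, and 3, and Trav genes 317, 362, and 528 CPM. In mixed barcodes the Trbv sum was 570, 582, and 633 CPM, and in B-type barcodes, which had B cell genes and no CD3 gene, it was 426, 286, and 594 CPM. The 3 node classes kept that order in every reaction. MC38 T-type barcodes held 212 and 465 CPM of Trbv and 56.5 and 136 CPM of Trav, below every node T-type value. Myeloid-type barcodes of the same tumors held 0.743 and 0.695 CPM of Trbv and 1.00 and 1.00 CPM of Trav, where Trav4-3 had 10 of 23 and 6 of 23 Trav UMIs.

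The share of barcodes with any Trbv UMI followed the same order. It was 79.3%, 78.9%, and 88.6% in node T-type, 67.3%, 64.6%, and 68.7% in mixed, and 46.0%, 28.1%, and 47.6% in B-type barcodes, at median depths of 2132 to 2377, 1817 to 2020, and 1022 to 1553 UMIs. After barcodes were thinned to 1000 gene UMIs and shallower ones left out (2.59%, 5.25%, and 5.71% of T-type, 1.58%, 2.73%, and 8.37% of mixed, and 10.8%, 26.1%, and 45.2% of B-type barcodes), the shares were 56.3%, 56.3%, and 69.7% in T-type, 43.0%, 44.1%, and 45.4% in mixed, and 34.5%, 25.1%, and 44.7% in B-type barcodes. The node classes thus stayed apart at equal depth, except that B-type reached 44.7% in reaction 3 beside 45.4% in its mixed barcodes. Trav genes were seen less often, in 48.4%, 51.8%, and 68.6% of T-type, 37.0%, 37.5%, and 41.9% of mixed, and 22.7%, 14.6%, and 24.5% of B-type barcodes. In MC38 tumors a Trbv UMI was seen in 22.6% and 40.3% of T-type barcodes (16.0% and 37.7% thinned, with 23.9% and 44.3% of barcodes left out as shallower) and in 0.235% and 0.241% of the deeper myeloid-type barcodes, and a Trav UMI in 7.61% and 14.0% against 0.361% and 0.396%. B-type node barcodes cannot serve as a class that lacks T cell RNA, since 30.1% of them in reaction 1 also held Cd8a or Cd8b1.

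**Figure D1:**
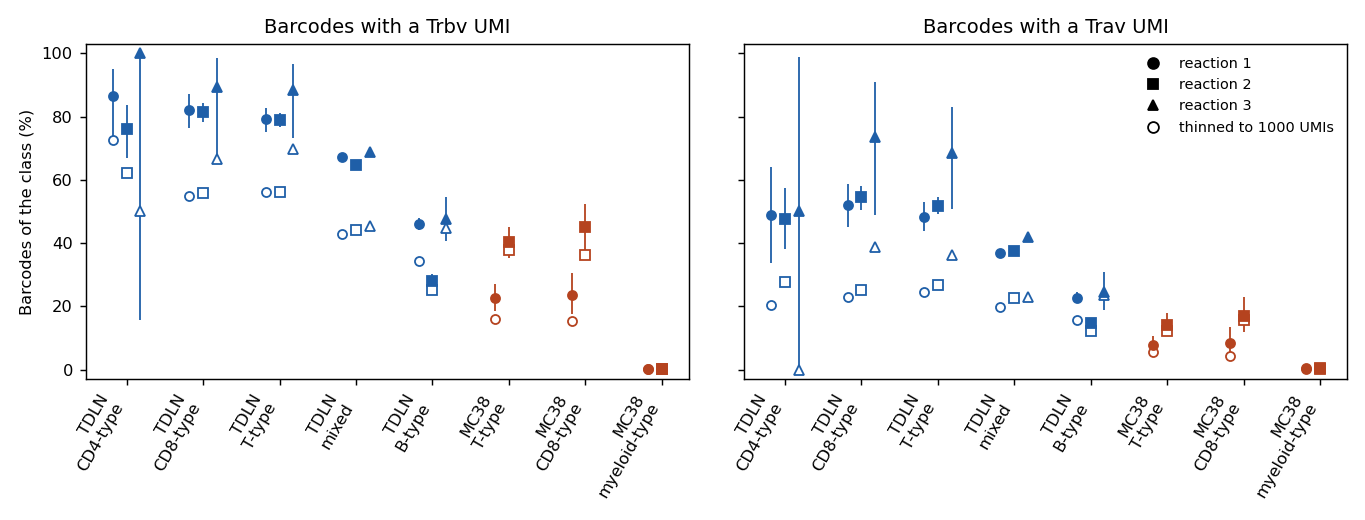
Share of barcodes (y axis, percent) with at least 1 Trbv UMI (left) or Trav UMI (right) for each class (x axis) and reaction (filled symbols, with exact 95% intervals that cover counting error only) and after thinning to 1000 UMIs (open symbols). For Trbv, node T-type barcodes sit at 78.9% to 88.6%, mixed barcodes at 64.6% to 68.7%, MC38 T-type barcodes at 22.6% and 40.3%, and myeloid-type barcodes at 0.235% and 0.241%.

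Per constant region UMI, node T-type barcodes had 2.55, 2.52, and 3.29 Trbv UMIs for each Trbc1 or Trbc2 UMI and 1.26, 1.43, and 1.70 Trav UMIs for each Trac UMI. MC38 T-type barcodes had 0.685 and 2.03 Trbv UMIs per Trbc UMI and 0.221 and 0.413 Trav UMIs per Trac UMI. The tumor ratios lay below the node ratios for both chains, and the Trbv ratio differed more between the 2 tumor reactions than among the nodes. Trbc1 and Trbc2 together, the denominator for Trbv, were at 390 CPM in node T-type barcodes of every reaction and at 310 and 229 CPM in MC38 T-type barcodes. Nodes and tumors differ in tissue, tumor line, sort, software version, and gene annotation. The treatments behind their T-type barcodes may differ as well, since node barcodes could not be split by treatment. These differences cannot be told apart. The MC38 matrices list 33696 genes against 32285, among them 2 Trav genes, Trav13-5 and Trav7d-6, that GENCODE M21 does not have.

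Trbv UMIs of a T-type barcode were mostly of the same gene, and those of a mixed barcode mostly of different genes. The same-gene share, the chance that 2 Trbv UMIs drawn from a barcode are of the same gene, averaged 0.709 over 287 barcodes with at least 2 Trbv UMIs in TDLN 1, 0.678 over 783 in TDLN 2, and 0.515 over 23 in TDLN 3. UMI pairs drawn from the summed usage of those classes would be of the same gene with a chance of 0.0672, 0.0657, and 0.141. In mixed barcodes the same-gene share was 0.101, 0.120, and 0.109 over 14083, 10593, and 1641 barcodes, above the 0.0639, 0.0632, and 0.0642 of their summed usage and far below the T-type shares. MC38 T-type barcodes had 0.776 over 22 and 0.804 over 51 barcodes. No mixed value came near a T-type value of either tissue. For Trav genes the shares were 0.589, 0.543, and 0.224 in node T-type and 0.0668, 0.0993, and 0.0633 in mixed barcodes.

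The number of different Trbv genes in a barcode was also counted. In TDLN 1, 50.5% of T-type barcodes showed 1 Trbv gene, 20.7% showed 2, and 7.99% showed 3 or more. In TDLN 2 these were 50.4%, 21.1%, and 7.39%, and in TDLN 3 40%, 37.1%, and 11.4%. In mixed barcodes 3 or more Trbv genes were seen in 11.1%, 8.82%, and 15.6% of barcodes, at a lower median depth than in T-type barcodes. In MC38 tumors 21.1% and 37.3% of T-type barcodes showed 1 Trbv gene, 1.52% and 3.00% showed 2, and 0 of 394 and 0 of 400 showed 3 or more, which allows a share of up to 0.761% and 0.750%.

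The same-gene share differed between barcodes with few and with many B list UMIs. In TDLN 1 and 2 it was 0.709 and 0.678 at a B list share up to 10%, and 0.746 and 0.692 between 10% and 20%. It was 0.886 (14 barcodes) and 0.628 between 20% and 30%, and 0.521 (8 barcodes) and 0.316 between 30% and 40%. From 40% to 50% it was 0.119 and 0.151, and from 50% to 60% it was 0.0879 and 0.108. The lowest bin is the T-type gate itself, the bin from 10% to 20% held like values, and from 40% to 90% all values were at or under 0.151. From 60% to 70% it was 0.0973 and 0.0991, and it was higher again toward the upper end, at 0.105 and 0.143 from 80% to 90% and at 0.153 (673 barcodes) and 0.417 (173 barcodes) above 90%.

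**Figure D2:**
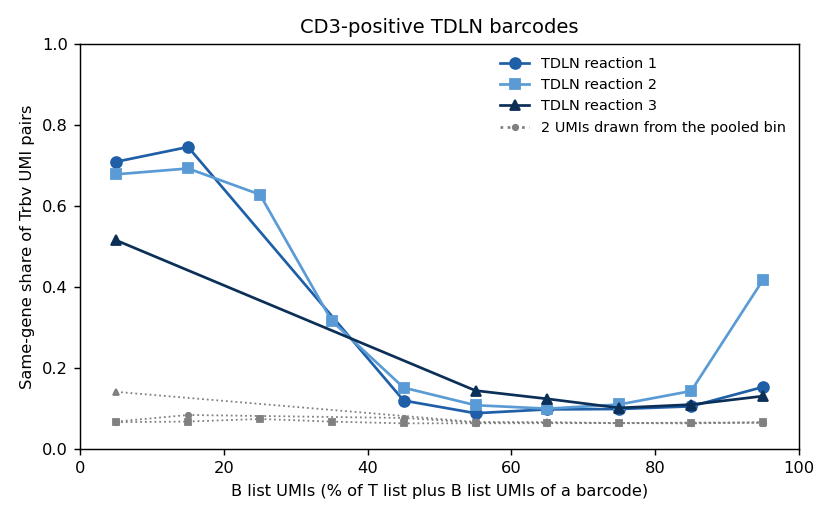
Same-gene share of Trbv UMI pairs (y axis, 0 to 1) by the B list share of node barcodes with a CD3 gene (x axis, percent, drawn at bin centers, bins of fewer than 20 such barcodes left out), a solid line for each TDLN reaction and a dotted line for UMIs drawn from the pooled bin. TDLN 1 and 2 lie at 0.746 and 0.692 from 10% to 20% and at 0.119 and 0.151 from 40% to 50%.

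Beta V usage in mixed barcodes, here the share of all Trbv UMIs that a gene held, was similar between reactions. Trbv3 led with 9.60%, 9.23%, and 10.2%, followed by Trbv13-2 with 9.43%, 9.03%, and 9.80% and Trbv1 with 8.17%, 8.06%, and 8.49%. Trbv15 held 7.76%, 7.85%, and 8.08% and Trbv16 7.57%, 8.11%, and 7.14%, so that Trbv1, Trbv15, and Trbv16 overlapped in the order. Trbv19 (6.65%, 6.74%, and 6.28%), Trbv13-1 (6.52%, 6.34%, and 6.44%), and Trbv12-2 (6.24%, 6.23%, and 6.15%) followed. Counted once per barcode by its leading gene, Trbv13-2 came first in TDLN 1 and 2 (1698 and 1278 barcodes) and Trbv3 in TDLN 3 (201). The usages of reactions 1 and 2 would become equal if 2.17% of Trbv UMIs changed genes (r = 0.998 across 35 genes of the same 2 libraries, which are not independent points), and those of reaction 3 differed from reactions 1 and 2 by 3.43% and 4.50%. The inverse of the summed squared shares, an effective number of equally used genes, was 15.7, 15.8, and 15.6 for Trbv. Pseudogenes took 0.840%, 0.788%, and 0.991% of Trbv UMIs and 1.46%, 1.22%, and 1.68% of Trav UMIs in mixed barcodes.

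Node T-type barcodes had nearly the same effective number in TDLN 1 and 2 (14.9 and 15.2), and 7.11 in TDLN 3, where the class holds 35 barcodes. Trbv15 had the most Trbv UMIs in each reaction, with 162 of 1337 (12.1%, 95% exact interval 10.4% to 14.0%), 332 of 3465 (9.58%, 8.62% to 10.6%), and 33 of 112 (29.5%, 21.2% to 38.8%). These came from 32, 85, and 6 barcodes. Counted once per barcode by its leading gene, Trbv15 led in 25 of 337 (7.42%), 60 of 974 (6.16%), and 5 of 26 barcodes, and Trbv13-2 led in more barcodes than Trbv15 in TDLN 1 (30) and TDLN 2 (90). In TDLN 3, Trbv3 led in 6 barcodes, so that Trbv15 was first by UMIs but not by barcodes in every reaction. The T-type usages of TDLN 1 and 2 differed by 9.72% of UMIs, against 10.1% and 5.70% between T-type and mixed barcodes of the same reaction, TDLN 1 and TDLN 2 in turn. Mixed barcodes far outnumber T-type barcodes, and intervals cover counting error only, since the UMIs of a barcode are not independent.

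**Figure D3:**
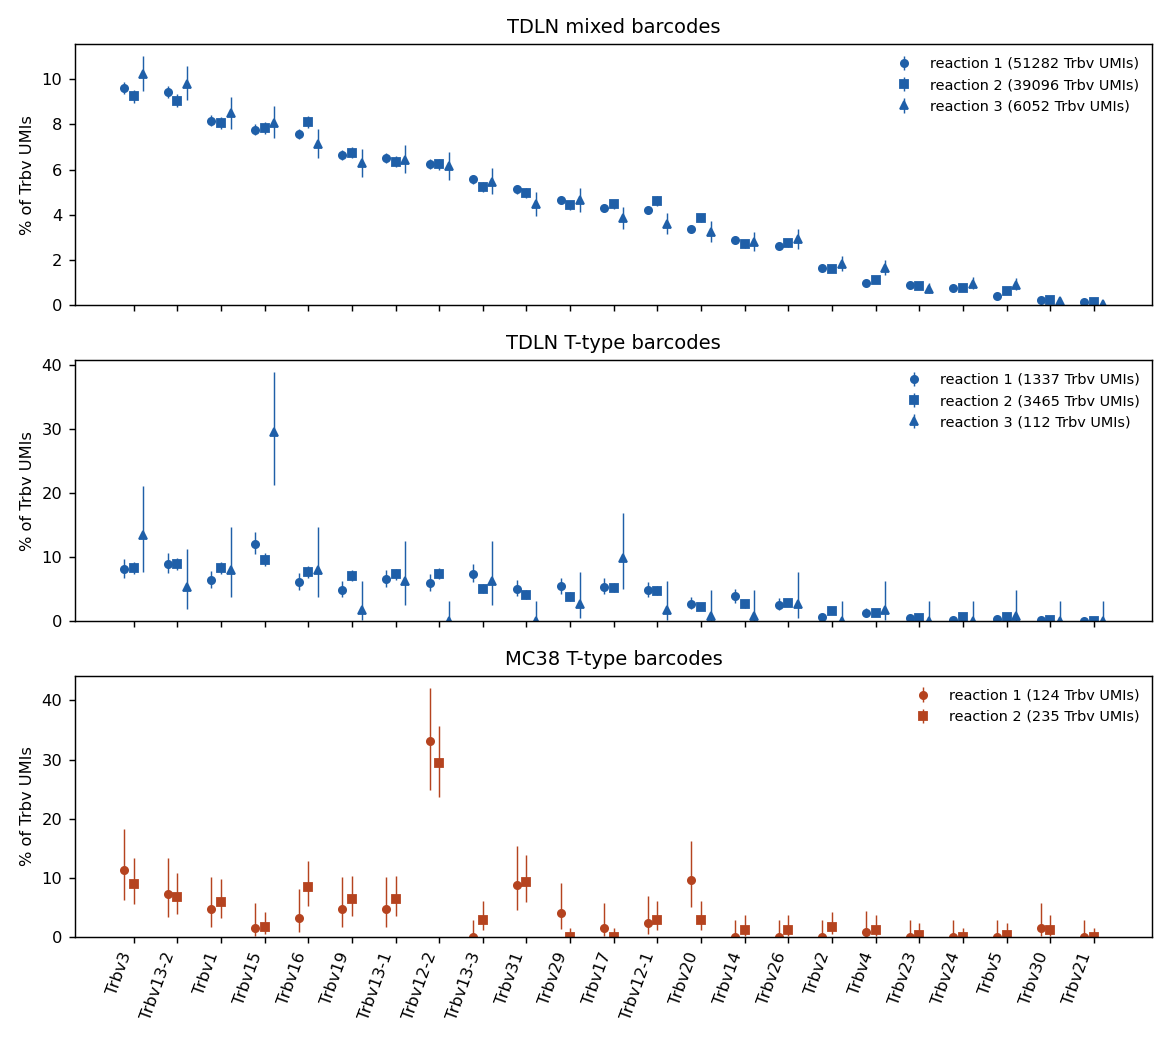
Share of Trbv UMIs (y axis, percent, a scale for each panel) held by each Trbv gene (x axis, in the order of mixed barcodes) in mixed, node T-type, and MC38 T-type barcodes, by reaction, with exact 95% intervals. Trbv15 has the most UMIs in node T-type barcodes, and Trbv12-2 stands at 33.1% and 29.4% in MC38 T-type barcodes.

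Alpha V usage was spread over more genes. The effective number of Trav genes was 44.0, 43.3, and 44.9 in mixed and 38.8, 44.6, and 17.6 in node T-type barcodes. Trav12-2 had the most Trav UMIs in mixed barcodes of TDLN 1 (846 of 20233, 4.18%) and TDLN 3 (119 of 2554, 4.66%), and Trav3-3 in TDLN 2 (758 of 16945, 4.47%). Summed by subgroup number, which does not restore UMIs of genes with identical exons, Trav14 genes came first with 15.1%, 13.5%, and 13.3% of mixed Trav UMIs, and Trav7 (11.4%, 11.1%, and 12.2%) and Trav13 (11.3%, 11.2%, and 10.9%) followed, with overlapping values. Node T-type barcodes had 16.4%, 13.5%, and 15.2% for Trav14.

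Leading Trav genes of the smaller classes rested on few UMIs. In node T-type barcodes these were Trav13-4-dv7 with 19 of 426 UMIs, Trav12-2 with 52 of 1275, and Trav8n-2 with 7 of 46. In CD8-type barcodes they were Trav7-5 and Trav5-4, tied with 14 of 216 each, Trav16n with 36 of 679, and Trav8n-2 with 6 of 27. In CD4-type barcodes of TDLN 1, Trav13n-4 and Trav15-1-dv6-1 were tied with 4 of 42 Trav UMIs each, and in TDLN 2 Trav7-5 led with 7 of 94. A ranking by the mean share over CD4-type and CD8-type sums put Trav21-dv12 and Trav17 first, because each held 1 of the 2 Trav UMIs of the TDLN 3 CD4-type sum. Trav8n-2, Trav13-1, Trav14-3, Trav15-1-dv6-1, Trav10, Trav9-1, Trav14d-3-dv8, and Trav7-5 followed in that ranking.

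Of the V segments of invariant T cells, the Trav11 genes had few UMIs, and Trav1 had more. Trav11, the alpha V segment of invariant NKT cells, had 1 UMI in mixed barcodes of TDLN 1 and 0 in T-type and mixed barcodes of the other reactions, and its copy Trav11d had 0. Trav11n is an annotated pseudogene whose V exon is 97.9% identical to that of Trav11. It had 16, 12, and 0 UMIs in mixed and 0, 2, and 0 in T-type barcodes of TDLN 1, 2, and 3. Reads may be split between these copies, so rarity of Trav11 cannot be read from these counts. Trav1, the segment of mucosal-associated invariant T cells, which other T cells also use, held 231 of 20233 (1.14%), 140 of 16945 (0.826%), and 27 of 2554 (1.06%) Trav UMIs in mixed barcodes. In node T-type barcodes Trav1 had 0 of 426, which allows a share of up to 0.704%, 14 of 1275 (1.10%), and 0 of 46, which allows up to 6.52%, and in MC38 T-type barcodes 0 of 33, which allows up to 9.09%, and 2 of 69.

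Between the coreceptor classes of the nodes, edgeR called Trbv12-1 higher in CD8-type sums, and Trbv31 and Trbv26 higher in CD4-type sums. UMIs were summed per class and reaction, and CD8-type was tested against CD4-type with edgeR's quasi-likelihood test over all genes with at least 15 UMIs in the 6 sums, with the reaction as a replicate block and Benjamini-Hochberg adjustment. Among 9126 genes tested, 96 (1.05%) had an adjusted p under 0.05, 37 (0.405%) higher in CD8-type and 59 (0.647%) higher in CD4-type barcodes. Of the 163 V genes, 49 passed the UMI minimum (29 Trav and 20 Trbv), and 3 Trbv genes and 0 Trav genes were called by edgeR. At an unadjusted p under 0.05 there were 9 Trbv and 3 Trav genes, against 7.1% of all genes tested. The median log2 difference, CD8-type minus CD4-type, was −0.20 over the 20 Trbv genes (9 above and 11 below 0), 0.81 over the 29 Trav genes (19 above and 10 below 0), and 0.08 over all genes. Trav medians include fitted values against CD4-type sums at 0 UMIs, and are no bound. The UMI minimum also favors CD8-type, whose sums held 2819730 gene UMIs against 382807, so rare genes could pass it through CD8-type counts alone. With no minimum, the median over 92 V genes was −0.21 (43 above and 49 below 0). Over the 49 V genes that passed the minimum it was 0.09 (28 above and 21 below 0). Median depth was 2236, 1917, and 2480 UMIs in CD4-type and 2818, 2539, and 2660 in CD8-type barcodes. The labels do not tell whether reactions of a tissue came from different mice, so p-values measure the spread between these sums, which may be technical.

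Trbv12-1 had 0, 2, and 0 UMIs in CD4-type and 50, 118, and 1 in CD8-type barcodes of TDLN 1, 2, and 3. As CPM these were 0, 8.08, and 0 against 69.7, 57.6, and 19.3, and every CD8-type value lay above every CD4-type value. The gene was seen in 2 CD4-type barcodes, both in TDLN 2, and in 25 of 219, 69 of 687, and 1 of 19 CD8-type barcodes. The edgeR log2 difference was 3.62 (SE 0.73, adjusted p = 0.000286). Over all sums together the level was 59.9 CPM against 5.22 CPM, a ratio of 11.5 with an exact counting interval of 3.13 to 95.5.

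Trbv31 ran the other way. It had 23, 13, and 0 UMIs in CD4-type and 27, 53, and 0 in CD8-type barcodes, which gave 177, 52.5, and 0 CPM against 37.6, 25.9, and 0 CPM. CD4-type was higher in TDLN 1 and 2, and neither class of TDLN 3 had a UMI. The UMIs came from 8 of 45 and 6 of 109 CD4-type barcodes and from 13 of 219 and 29 of 687 CD8-type barcodes. In TDLN 2 the classes lay closer by these shares than by CPM. The edgeR log2 difference was −1.50 (SE 0.38, adjusted p = 0.0115).

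Trbv26 had 7, 18, and 0 UMIs in CD4-type and 14, 36, and 3 in CD8-type barcodes, or 53.7, 72.7, and 0 CPM against 19.5, 17.6, and 57.8 CPM. CD4-type was higher in TDLN 1 and 2 and CD8-type in TDLN 3, so the classes overlapped. The gene was in 3 of 45 and 4 of 109 CD4-type barcodes, against 6 of 219, 22 of 687, and 1 of 19 CD8-type barcodes. In TDLN 2 these shares were close, and the 18 CD4-type UMIs lay in 4 barcodes. The edgeR log2 difference was −1.60 (SE 0.44, adjusted p = 0.0291). It was −0.66 (edgeR adjusted p = 0.975) when the B list share was held to 5%, and the adjusted p was 0.0520 with no minimum on UMIs.

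**Figure D4:**
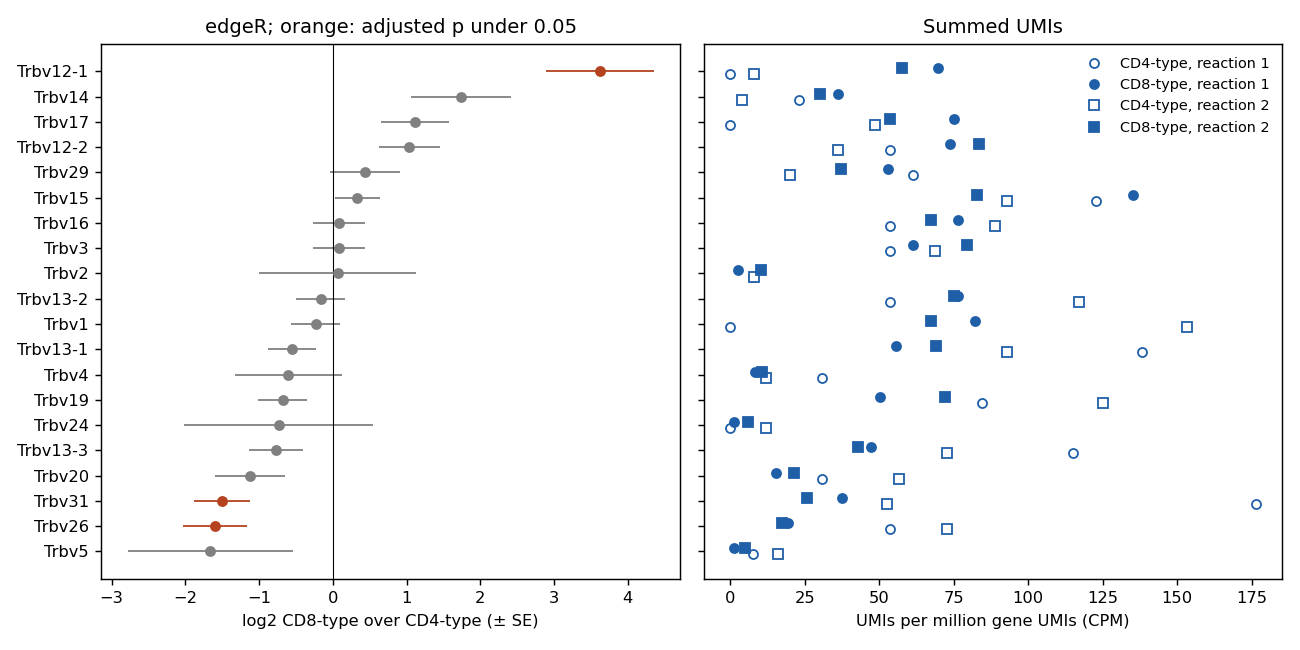
Left, edgeR log2 difference (CD8-type over CD4-type, x axis, bars ± SE) of the 20 Trbv genes tested, with adjusted p under 0.05 in orange; right, their CPM (x axis) in CD4-type (open) and CD8-type (filled) sums of TDLN 1 and 2, TDLN 3 being in the fit but not drawn. Trbv12-1 lies at 3.62, and Trbv31 and Trbv26 at −1.50 and −1.60, with both open symbols to the right of both filled ones for the latter pair.

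The CD4-type sums hold 140, 288, and 6 Trbv UMIs, and the calls were lost under several alternatives, for causes that were not tested. Without TDLN 1 or without TDLN 2 edgeR called 0 V genes, with 6 and 4 at an unadjusted p under 0.05, among 8 and 2 of all genes called (0.0935% and 0.0318%) and 2.55% and 1.81% of all genes at that unadjusted p. Without TDLN 3 it called the same 3. The log2 difference of Trbv12-1 was 2.92 without TDLN 1 and 6.93 without TDLN 2, the latter against CD4-type sums at 0 UMIs. With Trav and Trbv genes scaled to their own chain's UMIs and refitted within that chain alone, the edgeR test called 0 V genes. There 5 had an unadjusted p under 0.05, and Trbv12-1 had a log2 difference of 3.74 with an SE of 1.19. Scale and refit changed together in this setting. DESeq2 also called 0, with 3 at an unadjusted p under 0.05 and Trbv12-1 at 3.16.

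Trbv12-2 had 7, 9, and 0 UMIs in CD4-type and 53, 171, and 0 in CD8-type barcodes, or 53.7, 36.4, and 0 CPM against 73.9, 83.4, and 0 CPM. Its edgeR log2 difference of 1.04 (SE 0.42) had an adjusted p of 0.393. Another 5 Trbv genes had an unadjusted p under 0.05 in edgeR and were not called. Of these, Trbv14 (log2 difference 1.74) and Trbv17 (1.11) had positive and Trbv20 (−1.13), Trbv13-3 (−0.77), and Trbv19 (−0.68) negative values, with adjusted p from 0.353 to 0.631. Trbv15, first by UMIs in T-type barcodes, had 123, 92.9, and 0 CPM in CD4-type and 135, 82.9, and 617 CPM in CD8-type barcodes, with an adjusted p of 0.939 in edgeR. The 617 CPM of TDLN 3 came from 32 UMIs in 5 barcodes.

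Among Trav genes, Trav12-2 had 0 UMIs in CD4-type and 5, 32, and 1 in CD8-type barcodes. Set against 3 UMIs over all CD4-type sums, the Trav12-2 ratio would be 1.72, which leaves out counting error of the CD8-type UMIs and is no bound. Its edgeR adjusted p was 0.280. Trav3-3 had 0, 1, and 0 UMIs against 11, 32, and 1, a ratio of 5.97 with an exact counting interval of 1.02 to 241, and an edgeR adjusted p of 0.530. Trav3-1 had 0 UMIs against 12, 14, and 0. Trav12-2 and Trav3-1 thus passed the UMI minimum through CD8-type barcodes alone.

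The larger class of T-type barcodes without Cd8a or Cd8b1, chosen as a comparison after the first test was seen, gave 5 called V genes among 351 of 9769 genes (3.59%) by edgeR. Trbv12-1 and Trbv12-2 were higher in CD8-type barcodes and Trbv13-3, Trbv26, and Trbv31 in the others. Trbv12-2 had 17, 56, and 0 UMIs in these barcodes and 53, 171, and 0 in CD8-type barcodes, or 36.6, 47.5, and 0 CPM against 73.9, 83.4, and 0 CPM. Its log2 difference was 0.94 with an edgeR adjusted p of 0.00118. Trbv12-1 stood at 15.1, 36.5, and 34.9 CPM in the CD8-negative barcodes, so that CD8-type was higher in TDLN 1 and 2 and lower in TDLN 3. Without TDLN 3, edgeR called Trbv12-2 and Trbv31, 2 of 236 genes called (2.42% of those tested). The CD8-negative class included every CD4-type barcode, 45 of its 209, 109 of 595, and 2 of 14 barcodes in TDLN 1, 2, and 3. Its other barcodes had no Cd4 UMI. It was set against the same CD8-type sums, so its calls are not independent of the first test.

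The receptor's constant genes and proximal signaling genes were read in the same test. Of a 21-gene list with Trac, Trbc1, Trbc2, the CD3 zeta gene Cd247, the kinases Zap70 and Fyn, and the adaptors Lcp2 and Grap2, 17 were tested. By edgeR 0 were called and 0 had an unadjusted p under 0.05, beside 1.05% and 7.1% of all genes, so that 0 of 17 called is near the background. Their median log2 difference was −0.07 beside 0.08 over all genes. Cd247 had the lowest p, with a log2 difference of −0.43 and an adjusted p of 0.783. Rag1, Rag2, Ptcra, and Dntt, which act in receptor rearrangement or in thymic precursors, had too few UMIs to be tested.

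In MC38 T-type barcodes beta V usage was concentrated on Trbv12-2, which the antibody nomenclature calls Vβ5.1. In T-type barcodes it held 41 of 124 Trbv UMIs (33.1%, 95% exact interval 24.9% to 42.1%) in reaction 1 and 69 of 235 (29.4%, 23.6% to 35.6%) in reaction 2. The mean was 31.2% ± 2.62 (SD, n = 2). The UMIs came from 28 and 48 barcodes, and Trbv12-2 was the leading gene of 27 of 86 (31.4%) and 42 of 154 (27.3%) barcodes. In the nodes Trbv12-2 held 5.98%, 7.39%, and 0% of T-type Trbv UMIs and 6.24%, 6.23%, and 6.15% in mixed barcodes. The 0 of 112 UMIs in TDLN 3 allows a share of up to 2.68%. Both tumor values lay above all node values. No test was made between the tissues, which differ in tumor line, sort, and processing. Treatment may differ too. Of MC38 T-type barcodes with a single treatment, 95.8% and 94.3% were assigned to CPI without ABT-317, whereas node values are over all treatments together.

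In CD8-type barcodes of the tumors, Trbv12-2 held 20 of 57 (35.1%) and 54 of 128 (42.2%) Trbv UMIs, against 7.52%, 9.07%, and 0% in node CD8-type barcodes. In the other MC38 T-type barcodes it held 21 of 67 (31.3%) and 15 of 107 (14.0%), near the CD8-type share in reaction 1 and below it in reaction 2. MC38 CD4-type barcodes had Trbv12-2 in 4 of 10 UMIs, all in 1 barcode, and in 0 of 21, where Trbv3 led with 7. In MC38 T-type barcodes Trbv3 held 11.3% and 8.94%, and Trbv31 8.87% and 9.36%, both in like shares of the 2 reactions. Trbv13-2 held 7.26% and 6.81%, Trbv16 3.23% and 8.51%, and Trbv20 9.68% and 2.98%, with Trbv16 and Trbv20 in opposite order in the 2 reactions. Trbv15 held 1.61% and 1.70%, below its 9.58% to 29.5% in node T-type barcodes. Trbv12-1, called in node CD8-type barcodes, had 3 of 57 and 3 of 128 UMIs in MC38 CD8-type and 0 of 10 and 0 of 21 in MC38 CD4-type barcodes.

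The effective number of Trbv genes was 6.42 and 7.66 in MC38 T-type and 5.96 and 4.79 in MC38 CD8-type barcodes, against 14.9 and 15.2 in T-type barcodes of TDLN 1 and 2. In TDLN 3, where Trbv UMIs were about as few as in the tumors, it was 7.11 in T-type and 4.66 in CD8-type barcodes (112 and 76 UMIs), so the tumor values did not stand apart from all node values. The 2 tumor reactions differed from each other by 19.2% of Trbv UMIs (r = 0.948 across 35 genes) and from node T-type barcodes by 30.8% to 59.3%. Among node T-type barcodes, TDLN 3 differed from TDLN 1 and 2 by 31.6% and 31.9%, so these ranges overlapped. Few alpha chains were seen beside the beta chains of the tumors. Of the Trbv12-2 barcodes, 2 of 28 and 3 of 48 had any Trav UMI, and these were of 5 different genes. Trav12-2 led the Trav genes with 4 of 33 and 8 of 69 UMIs in MC38 T-type barcodes.

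By hashtag, nearly all MC38 T-type barcodes with a single treatment were assigned to CPI without ABT-317, 277 of 289 (95.8%) and 312 of 331 (94.3%). A further 89 and 35 T-type barcodes had several hashtags and 16 and 34 had none. Isotype had 12 and 13, CPI + ABT-317 0 and 6, and isotype + ABT-317 0 and 0, among 5751 and 4333, 439 and 536, and 651 and 307 passing barcodes of those treatments. CPI had 1867 and 1370 passing barcodes, and 4815 and 1702 passing barcodes had several hashtags. In the CPI barcodes Trbv12-2 held 30 of 80 (37.5%, exact interval 26.9% to 49.0%) and 63 of 196 (32.1%, 25.7% to 39.2%) Trbv UMIs, in 19 and 43 barcodes, and Trbv31 10 of 80 (12.5%) and 19 of 196 (9.69%). The isotype barcodes held 3 and 5 Trbv UMIs, too few to give a usage. V usage therefore could not be compared between treatments at this depth. With no upper limit on genes, passing barcodes were 1978 and 1515 for CPI and 10241 and 8415 for isotype. They were 1902 and 2348 for CPI + ABT-317 and 2705 and 2025 for isotype + ABT-317. T-type barcodes were then 277 and 314, 12 and 13, 0 and 6, and 0 and 0 in that order. The hashtag assignment was not checked by another measure, and whether tumors of other treatments held fewer T cells was not tested. The labels give 1 hashtag per treatment and reaction and not the number of mice behind it, so whether the Trbv12-2 barcodes of a reaction came from several mice was not tested.

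Alpha V counts in the tumors were mostly outside T cells. Barcodes without a UMI of Cd3d, Cd3e, or Cd3g held 1100 of 1323 (83.1%) and 1157 of 1435 (80.6%) Trav UMIs of the 2 MC38 reactions, but 157 of 765 (20.5%) and 124 of 962 (12.9%) Trbv UMIs. Trav4-3 alone accounted for 750 (68.2%) and 790 (68.3%) of those Trav UMIs and Trav4-4-dv10 for 216 and 224. Trav4-3 lies at chr14:53598828-53599410 and Trav4-4-dv10 at chr14:53683647-53684177 (GRCm38, plus strand). Their ratio was 3.47 and 3.53 in these barcodes, 1.80 and 1.76 in MC38 barcodes with a CD3 gene, and 0.617, 0.768, and 0.581 in node barcodes with a CD3 gene. In nodes, 92.1%, 93.5%, and 95.8% of Trbv UMIs were in barcodes with a CD3 gene.

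Trav4 levels moved with collagen. In MC38 barcodes without a CD3 gene, the 2 Trav4 genes together were at 0.407 and 0.354 CPM where Col1a1, Col1a2, and Col3a1 had 0 UMIs, at 0.691 and 0.638 CPM with 1 or 2, at 1.42 and 1.91 with 3 to 9, at 3.43 and 4.14 with 10 to 99, and at 3.24 and 4.25 with 100 or more. Trbv genes showed no such order, with 1.10 and 0.653 CPM at 0 collagen UMIs and 0.382 and 0.347 CPM at 10 to 99. Median depth was 2545, 3078, 9551, 14014, and 7025 UMIs over these 5 bins in reaction 1 and 2887, 3530, 21286, 18267, and 9489 in reaction 2, so that it was lower in the top bin than in the bin before, where Trav4 levels were close. The part of depth and of the gene limit was not tested. Most of these Trav UMIs, 1023 and 1089, were in barcodes over the limit of 2500 genes, which entered none of the class values above.

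**Figure D5:**
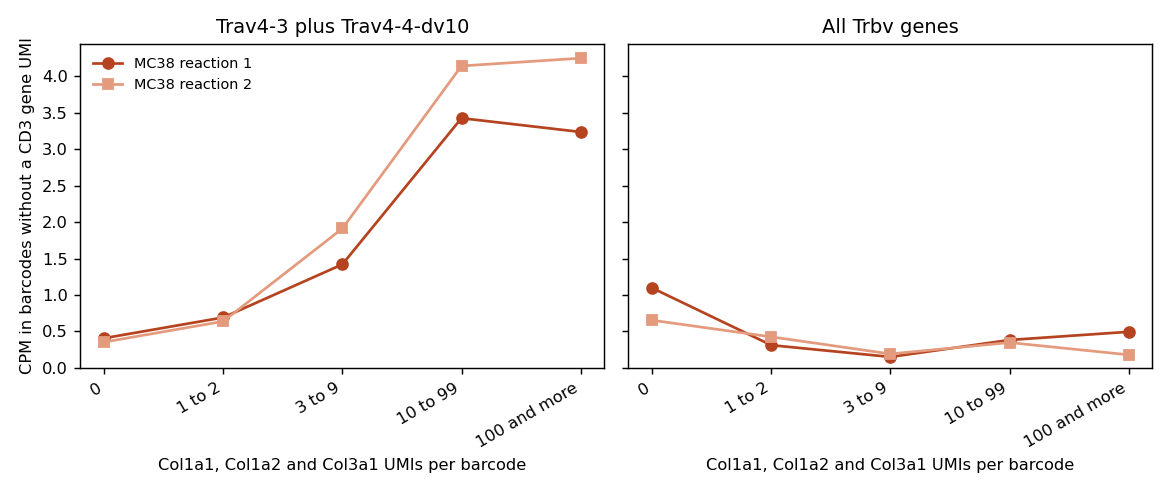
Level (y axis, CPM) of the 2 Trav4 genes and of all Trbv genes in MC38 barcodes without a CD3 gene UMI, by the summed UMIs of Col1a1, Col1a2, and Col3a1 (x axis), for each reaction. The Trav4 level goes from 0.407 and 0.354 CPM at 0 collagen UMIs to 3.24 and 4.25 CPM at 100 or more, and the Trbv level does not.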

How the data were processed

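The authors deposited UMI counts per gene and barcode as 10x matrices from 5′ libraries. File headers name Cell Ranger 7.1.0 (TDLN) and 8.0.1 (MC38 tumor), the submitters' processing notes Cell Ranger 3.1.0 and GRCm38. Amplified receptor libraries were not analysed here. Barcodes were filtered at 200 to 2500 genes and under 10% mitochondrial UMIs and gated as described, with no doublet caller. Some list genes are not reported here by name. MC38 T-type barcodes needed at most 50% of T and other list UMIs from a 14-gene list of other cell types. Hashtags were assigned by a mixture of 2 components per hashtag. Class sums were tested with edgeR 4.0.16 in R 4.3.3, with DESeq2 1.42.0 as an alternative, after a check on simulated data. Each reaction gave both classes, which is why the reaction was a block. SEs of edgeR log2 differences were derived from the test, as the absolute log2 difference over the square root of its quasi-likelihood F statistic. Shares carry exact (Clopper-Pearson) 95% intervals. Named were V genes past adjusted p 0.05, Trbv genes with at least 5% mean share, the 10 leading Trav genes, leading genes of each class, and invariant T cell V genes. The genes and lists were chosen with earlier results of these data known.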

Additional observations from a re-analysis of the deposited data

Results flagged for a closer look

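Trav4-3 had 750 UMIs in MC38 tumor reaction 1 and 790 in reaction 2 in barcodes without a UMI of Cd3d, Cd3e, or Cd3g. Of these, 10 and 6 were in myeloid-type barcodes, and all the others were in barcodes of no class. The count is above the 36 and 37 Trav4-3 UMIs in the fewer barcodes with a CD3 gene (1892 and 1414, against 35882 and 26168 without), at 1.80 and 2.18 CPM without and 1.90 and 2.54 CPM with a CD3 gene.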

How the results depend on the processing

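The count of V genes called between CD8-type and CD4-type sums was 3. It became 0 with DESeq2, 0 on the scale of each chain's UMIs with a refit within the chain, and 1 with filterByExpr. It was 5 against CD8-negative barcodes, an alternative chosen after seeing the data, and ranged from 0 to 3 when a reaction was left out. All genes called, 96, became 8 with DESeq2, 351 against CD8-negative barcodes, and 236 without TDLN 3 in that comparison, and ranged from 2 to 253 when a reaction was left out. Without the replicate block, edgeR called 87 genes and the same 3 V genes. The causes were not tested, beyond the fewer sums or genes those settings use. Across the alternatives Trbv12-1 stayed past the threshold in 8 and lost it in 5 (log2 1.07 to 6.93), Trbv26 in 7 and 7 (−1.83 to −0.66), and Trbv31 in 9 and 4 (−2.13 to −0.92). None changed sign.

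Thinned to 1000 UMIs, the mean share of barcodes with a Trbv UMI was 60.8% in node T-type and 44.2% in mixed barcodes, and the same-gene share was 0.765 in node and 0.728 in MC38 T-type barcodes. Counting barcodes by leading gene gave an effective number of 15.2 in mixed barcodes. The mean Trbv12-2 share of MC38 T-type barcodes was 34.4% with the stricter gate and 34.8% with CPI barcodes alone, added after seeing the data. Trav12-2 with its subgroup held 7.93% of mixed Trav UMIs, by construction more than alone. CD4-type values of TDLN 3 rest on 2 barcodes.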

Other observations

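The MC38 reactions also carried surface antibody counts. The antibody to Vβ5.1/5.2, the products of the Trbv12 genes, had median counts of 30 and 31 in T-type and 36 and 38 in the deeper myeloid-type barcodes. Among T-type barcodes, those with a Trbv12 UMI had medians of 37 and 35.5 (30 and 52 barcodes), and those with other Trbv UMIs alone 31 and 32. The quartiles overlapped, at 29 to 43 and 29.75 to 41 against 28 to 40 and 26 to 39. The Vβ8.1/8.2 antibody had medians of 53 and 53 in T-type and 64 and 67 in myeloid-type barcodes. The CD3 antibody was likewise lower in T-type (100 in reaction 1) than in myeloid-type barcodes (117), whereas CD8a was higher (21 and 20 against 16 and 16). Barcodes of a reaction are not replicates, and no test was made.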
